A study of Homo sapiens with 3 samples.

Results

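The clustered protocadherin genes at 5q31 were described through the replication origin calls that fall on them in HCT116 cells, a human colorectal cancer cell line. The cluster was taken as 735 kb of chromosome 5 (hg19 chr5:140160000-140895000), with the alpha genes at chr5:140160000-140392000, the beta genes at chr5:140430000-140627000 and the gamma genes at chr5:140710000-140895000, and every call that touches this window was a member. The 3 samples were untreated, grown in RPMI medium, and labelled as replicates 1, 2 and 3 of 1 group. Short nascent strands (SNS), the young DNA made next to a firing origin, were kept through digestion with lambda exonuclease, which spares strands that still carry an RNA primer, and were then sequenced (SNS-seq). The authors called each replicate with EPIC2, which finds diffuse enriched regions, and with MACS2, which gives single-base summits of narrow peaks. The cluster held 56 of 247794 EPIC2 regions and 152 of 443480 MACS2 summits, summed over the replicates.

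Clustered protocadherins are cadherin-like cell adhesion proteins, best known from neurons, where each cell uses its own small choice of them as a surface identity. In the alpha and gamma groups each variable exon has a promoter of its own and is spliced to constant exons shared by the whole group, while the beta genes are single-exon genes. Promoter choice there is tied to the DNA-binding protein CTCF and to DNA methylation. Replication origins, for their part, are known to be frequent at active, GC-rich promoters.

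RefSeq (GRCh38.p14) lists 15 alpha, 16 beta and 22 gamma protein-coding genes in this order, from PCDHA1 to PCDHGC5. No coding gene lies between alpha and beta, and SLC25A2, a mitochondrial carrier of basic amino acids, and TAF7, a subunit of the general transcription factor TFIID, lie between beta and gamma. RefSeq promoters, the 300 bases from 250 before to 50 after each gene's start, were matched by symbol for 47 of the 53 genes. Their median GC content was 39.7%, against 58.3% over all 27305 RefSeq promoters and 55.3% over the 1476 of chromosome 5, and 43 of the 47 lay below the median of all. By group the medians were 37.3% for alpha, 40.8% for beta and 42.0% for gamma. PCDHAC1, one of the alpha genes set apart from the others by its sequence, had the highest value at 66.0%.

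The letters CGCTG, which hold the core of a sequence element known from these promoters, were searched on both strands. They stood in 41 of the 47 promoters (9 of 13 alpha, 12 of 14 beta and 20 of 20 gamma), or 87.2%, against 47.8% of all RefSeq promoters of the same length. A match is only a match of letters in a window. The stretch of 61 bases around it, on the gene's strand from 5′ to 3′ with CGCTG in capitals, is shown for 1 gene of each group, the one with a match well upstream of the start whose GC content was nearest the median of its group.
PCDHA10, bases 68 to 8 before the start: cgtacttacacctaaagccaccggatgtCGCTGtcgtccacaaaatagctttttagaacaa
PCDHB7, bases 90 to 30 before the start: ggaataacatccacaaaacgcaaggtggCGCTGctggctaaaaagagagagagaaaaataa
PCDHGA2, bases 69 to 9 before the start: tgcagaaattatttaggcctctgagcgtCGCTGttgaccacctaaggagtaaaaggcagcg
The 3 stretches are alike at the capitals because they were chosen for them, and each belongs to an AT-rich promoter of its group. Around the capitals PCDHA10 and PCDHGA2 are also partly alike, with gt just before and ccac soon after, which PCDHB7 lacks. The calls are in hg19 and these sequences come from another build, so no call was placed on a promoter, and genes are given only by name and order.

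The replicates differed in how much was called. Replicates 1, 2 and 3 had 124492, 44482 and 78820 EPIC2 regions and 218227, 63077 and 162176 summits in all, and the cluster held 31, 6 and 19 regions and 81, 13 and 58 summits of them. Densities were therefore compared within a replicate, as ratios. Read depth was unknown, since the lists hold no read counts. With 1 group of 3 replicates an exact two-sided sign-flip test cannot go below p = 0.25, so ratios are given per replicate and as mean ± SD without a test, and that SD covers only the spread between these samples.

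The protocadherin cluster was poorer in EPIC2 regions than the sequence on both sides of it, in each replicate. It had 42.2, 8.16 and 25.9 regions per Mb in replicates 1, 2 and 3, against 99, 33 and 65.5 per Mb over 1 Mb on each side. The ratios were 0.426, 0.247 and 0.395, a mean of 0.356 ± 0.0954 (SD, n = 3), so the spread between replicates did not reach 1. The sides gave much the same answer when taken apart, with 0.371 ± 0.117 against the side before alpha, which in RefSeq's gene order opens with ZMAT2 and the histidyl-tRNA synthetase genes HARS1 and HARS2, and 0.343 ± 0.0766 against the side after gamma, which opens with DIAPH1, an actin-nucleating formin, and HDAC3, a histone deacetylase (SD, n = 3 for each). In bases, regions covered 6.42%, 1.99% and 8.35% of the cluster and 20.6%, 9.21% and 23.4% of the flanks.

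**Figure D1:**
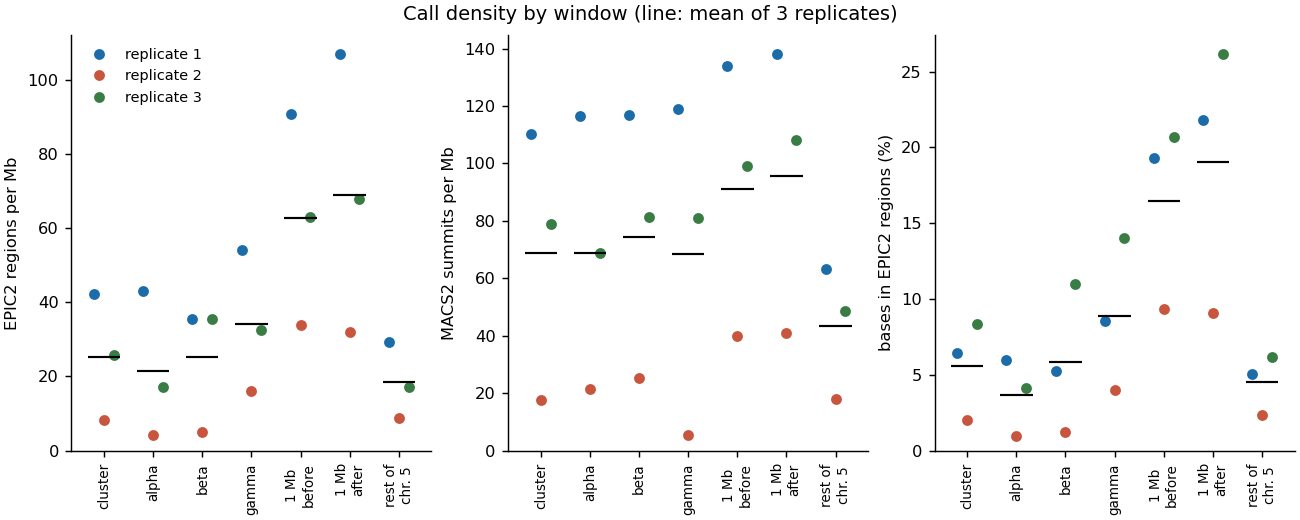
EPIC2 regions per Mb, MACS2 summits per Mb and the percent of bases in EPIC2 regions, for the cluster, its alpha, beta and gamma windows, 1 Mb on each side and the rest of chromosome 5. Points are replicates and lines their means; in each replicate the cluster lies below both sides in all 3 panels, and replicate 2 is lowest throughout.

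Against the rest of chromosome 5 (174.964 Mb with calls, without the cluster and its flanks) the cluster did not stand apart beyond the spread between replicates. The rest had 29.3, 8.90 and 17.2 EPIC2 regions per Mb, and the ratios were 1.44, 0.917 and 1.5, a mean of 1.29 ± 0.321 (SD, n = 3). Replicates 1 and 3 were above 1 and replicate 2 below it. The flanks were the unusual sequence in this respect, with 3.63 ± 0.225 times the density of the rest of the chromosome (SD, n = 3). With chromosomes 1 to 22 as background, the ratio for the cluster was 0.770 ± 0.235 (SD, n = 3), so that its direction depends on the background taken.

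Summits were less depleted than regions. The cluster had 110, 17.7 and 78.9 summits per Mb, against 136, 40.5 and 103.5 in the flanks, with ratios of 0.810, 0.437 and 0.762 and a mean of 0.670 ± 0.203 (SD, n = 3). The rest of chromosome 5 had 63.3, 18.1 and 48.7 per Mb, and the ratios of 1.74, 0.979 and 1.62 had a mean of 1.45 ± 0.410 (SD, n = 3). Replicate 2 was again the only one without an excess over the rest of the chromosome. There were 38.3, 46.2 and 32.8 EPIC2 regions for every 100 summits in the cluster, against 72.8, 81.5 and 63.3 in the flanks. That ratio of ratios, 0.526, 0.566 and 0.518 with a mean of 0.537 ± 0.0261 (SD, n = 3), varied least between replicates of all those taken against the flanks. Against the rest of the chromosome it was 0.896 ± 0.0616 (SD, n = 3).

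In bins of 100 kb the 7 bins wholly inside the cluster were lower than those outside in replicate 1. They held 2 to 5 EPIC2 regions (median 3), and the 20 bins outside held 6 to 18 (median 9.5), which do not overlap, though 5 and 6 are neighbouring values. These bins leave out the end of the cluster past 700 kb, where 6 of the 31 regions of replicate 1, 3 of the 6 of replicate 2 and 3 of the 19 of replicate 3 start. In replicate 3 the bins inside held 1 to 4 (median 3) and those outside 2 to 13 (median 6.5), which overlap. In replicate 2 they held 0 to 1 inside and 0 to 10 outside. Summits per bin ran from 10 to 12 inside and 11 to 19 outside in replicate 1, from 1 to 4 inside and 0 to 9 outside in replicate 2, and from 4 to 12 inside and 5 to 17 outside in replicate 3, so the ranges overlapped in all 3.

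**Figure D2:**
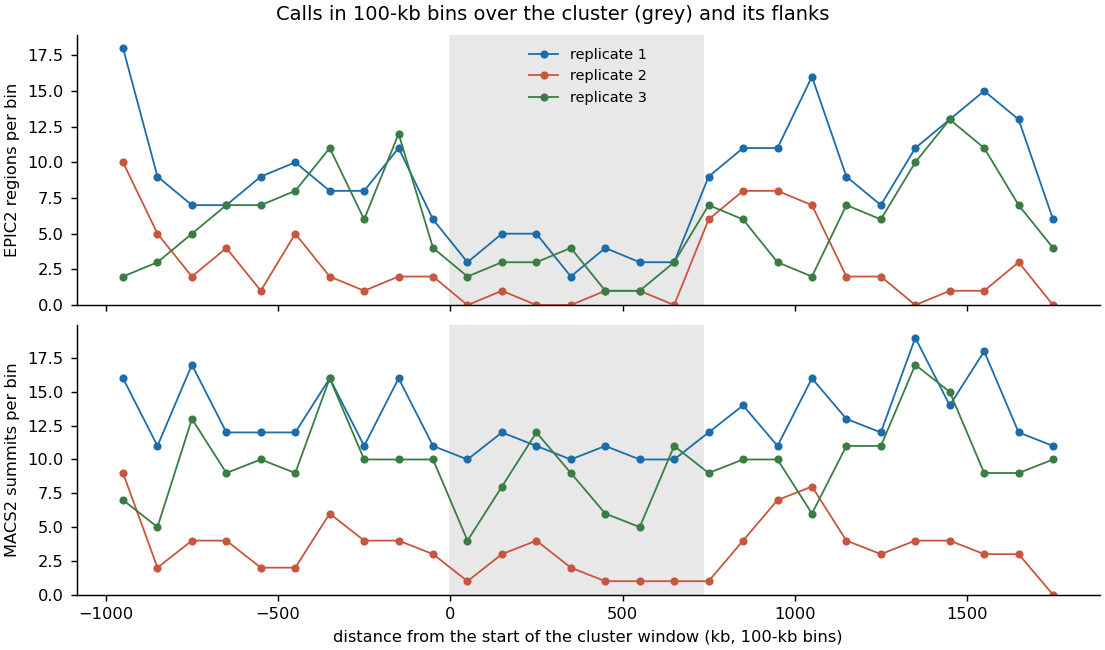
EPIC2 regions (top) and MACS2 summits (bottom) in bins of 100 kb, by distance from the start of the cluster, for 3 replicates, with the cluster in grey. Median region counts are lower inside the cluster than outside in each replicate, and counts rise again in the bin from 700 to 800 kb, which straddles its end and holds 9, 6 and 7 regions.

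Chromosome 5 was also divided into windows as long as the cluster, tiled from it in both directions. Of the 240 others, 76.3%, 57.1% and 73.3% had fewer EPIC2 regions than the cluster in replicates 1, 2 and 3, and 85.8%, 52.9% and 82.9% had fewer summits. The median window had 13, 5 and 5 regions and 40, 12 and 32 summits. In both counts the cluster ranked in the upper part of the chromosome in replicates 1 and 3, and near the middle in replicate 2. Regions per 100 summits gave another picture than against the flanks: the cluster's 38.3, 46.2 and 32.8 were above the median window's 35.5, 41.2 and 18.8, with 56.7%, 56.5% and 68.2% of windows lower (of 240, 239 and 239 windows with a summit).

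**Figure D3:**
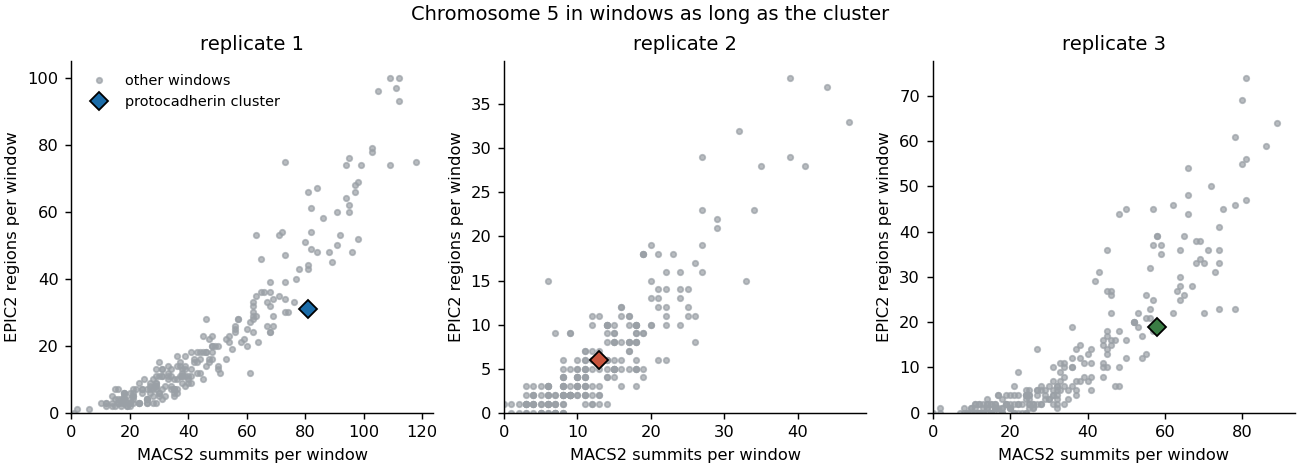
EPIC2 regions against MACS2 summits in windows of 735 kb over chromosome 5, by replicate, where each grey point is a window and the diamond is the protocadherin cluster. In replicates 1 and 3 the cluster has more summits and more regions than most windows, and in replicate 2 it lies near the middle.

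The groups within the cluster were compared next. Alpha held 10, 1 and 4 EPIC2 regions in replicates 1, 2 and 3, which is 43.1, 4.31 and 17.2 per Mb. Beta held 7, 1 and 7, or 35.5, 5.08 and 35.5 per Mb. Gamma held 10, 3 and 6, or 54.1, 16.2 and 32.4 per Mb. Gamma was the highest of the groups in replicates 1 and 2 and beta in replicate 3, and the means of 21.6 ± 19.8, 25.4 ± 17.6 and 34.2 ± 19.0 per Mb overlapped (SD, n = 3 for each). Summits were closer still, at 116, 117 and 119 per Mb in replicate 1 for alpha, beta and gamma and 69.0, 81.2 and 81.1 in replicate 3. Replicate 2 had 5 summits in alpha, 5 in beta and 1 in gamma. The bases covered were lowest in alpha and highest in gamma on average, at 3.68 ± 2.53%, 5.82 ± 4.90% and 8.86 ± 5.03% (SD, n = 3 for each), but in replicate 1 beta was lowest.

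The regions of gamma were not spread evenly. Its first 116.6 kb held 2 of its 19 EPIC2 regions, both of replicate 1, and its last 68.4 kb (chr5:140826601-140895000) held the other 17. In that last stretch the density was 117, 43.9 and 87.7 regions per Mb in replicates 1, 2 and 3, above the flanks in each replicate. Regions covered 18.7%, 10.8% and 38.0% of it, against 20.6%, 9.21% and 23.4% of the flanks. By bases it was thus below the flanks in replicate 1 and above them in replicates 2 and 3. Summits were also denser in the last stretch, at 161, 14.6 and 132 per Mb (11, 1 and 9 summits) against 94.3, 0 and 51.5 per Mb in the first (11, 0 and 6). The border between the stretches was chosen after these values were seen, as the end of the longest stretch without a region called by both callers, and the split was not tested.

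**Figure D4:**
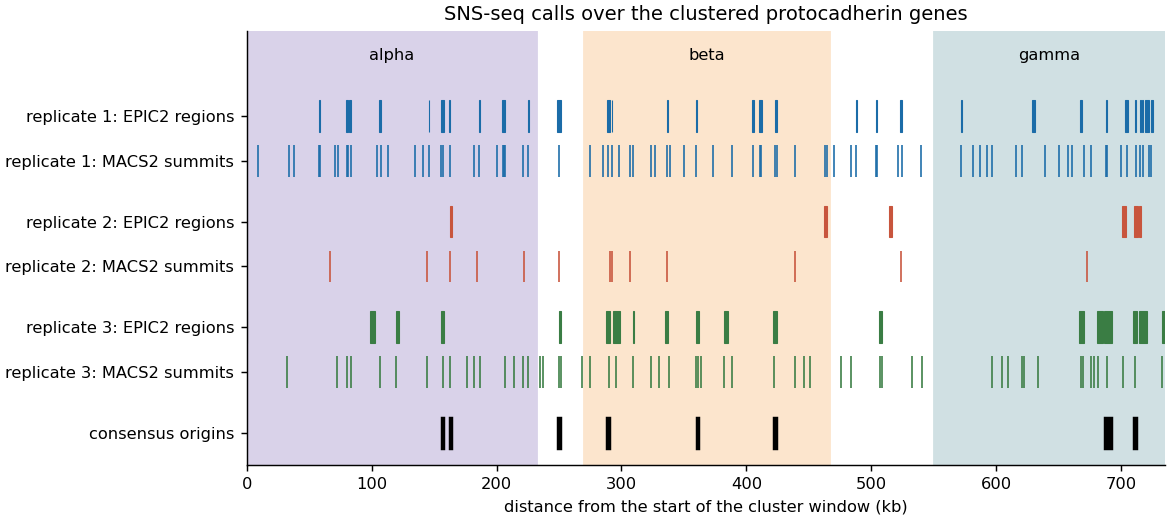
Calls along the cluster by distance from its start in kb, with EPIC2 regions as boxes and MACS2 summits as ticks for each replicate, and the 8 consensus origins in black. Summits run through the whole cluster in replicates 1 and 3, while 17 of the 19 EPIC2 regions of gamma lie near its end and 2 over its first part.

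Some stretches of the cluster had no EPIC2 region in any replicate. The longest was 57.0 kb at the start of alpha (chr5:140160401-140217400), with 4 summits over the 3 replicates, and the next was 56.6 kb in gamma (chr5:140732601-140789200), with 11 summits. The stretch without a region called by both callers ran to 94.0 kb in gamma (chr5:140732601-140826600) and held 16 summits, of which 10 were from replicate 1, 0 from replicate 2 and 6 from replicate 3. The longest stretch without a summit was 31.3 kb (chr5:140700965-140732284), across the border of the beta-gamma spacer and gamma. No such lengths were taken in the flanks or the rest of chromosome 5, so these stretches cannot be called particular to the cluster. In replicates 1 and 3 the rest of chromosome 5 had fewer EPIC2 regions per Mb (29.3 and 17.2) than the cluster (42.2 and 25.9).

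Most EPIC2 regions of the cluster held a summit of their own replicate, except in replicate 2. In replicate 1 it was 29 of 31 regions (93.5%, exact Clopper-Pearson 95% interval 78.6 to 99.2), in replicate 2 it was 1 of 6 (16.7%, 0.421 to 64.1) and in replicate 3 it was 16 of 19 (84.2%, 60.4 to 96.6). Over all chromosomes the shares were 81.7%, 56.8% and 71.7%, and over the rest of chromosome 5 they were 85%, 63% and 74.5%. Replicates 1 and 3 were thus above the background by 8.53 and 9.73 percentage points compared with the rest of the chromosome. Replicate 2 was below it, on 6 regions. In each replicate the share for the rest of the chromosome lay inside the counting interval of the cluster, in replicate 2 only just. Both callers used the same reads, so their agreement is no independent check, and the intervals cover counting error only.

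Looked at from the summits, 37 of 81 (45.7%), 1 of 13 (7.69%) and 19 of 58 (32.8%) stood inside an EPIC2 region of the same replicate. Over all chromosomes it was 57.5%, 44.2% and 43.7%, in the flanks 70.2%, 50.6% and 58.0%, and in the rest of chromosome 5 46.5%, 33.4% and 31.7%. The share in the cluster minus that in the flanks was -24.5, -42.9 and -25.2 percentage points, a mean of -30.9 ± 10.4 (SD, n = 3), while it was close to the rest of the chromosome in replicates 1 and 3.

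Scores were ranked as percentiles among all calls of a replicate on chromosomes 1 to 22 and X. The median summit of the cluster stood at percentile 41.5, 42.4 and 50.4, against 52.1, 50.4 and 51.9 in the flanks and 47.9, 42.4 and 48.5 in the rest of chromosome 5. The difference from the rest was -1.52 ± 4.39 percentile points (SD, n = 3), so summits in the cluster were of a strength like those of the rest of the chromosome within the spread between replicates. EPIC2 regions ranked lower than in the rest of the chromosome in all 3 replicates, by differences of -3.06, -22.8 and -22.7 percentile points (mean -16.2 ± 11.3, SD, n = 3), and lower than in the flanks by a mean of -21.9 ± 8.81. Their median widths, 1400, 2500 and 3000 bases, were near the 1400, 2600 and 3200 bases of the rest of the chromosome. Regions in the cluster were thus about as wide as elsewhere on chromosome 5, and lower in score.

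Of the 152 summits, 12 were among the strongest 10% of their replicate. They were 6 of 44 in beta, 3 of 48 in alpha, 2 of 15 in the beta-gamma spacer and 1 of 38 in gamma. None was from replicate 2, which had 13 summits in the cluster. By replicate the shares were 8.64%, 0% and 8.62%. The rest of chromosome 5 had 8.85%, 8.16% and 9.84%, and the flanks 9.56%, 12.3% and 10.6%. In replicates 1 and 3 the cluster was thus near the rest of the chromosome. The strongest was in alpha at chr5:140322520 in replicate 1, with a score (−log10 of the q-value) of 25.9, at percentile 98.8. The next in rank, at percentile 98.5 and with a score of 12.7, was in beta at chr5:140490313 in replicate 3, outside any EPIC2 region of that replicate.

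**Figure D5:**
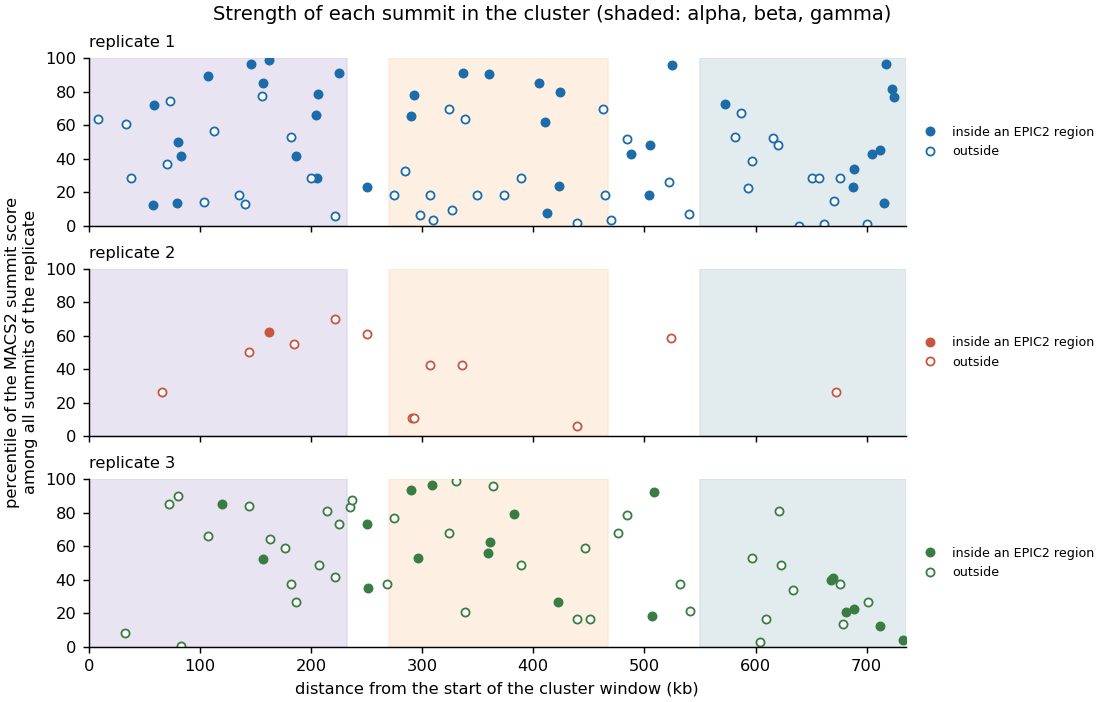
Percentile of each summit's MACS2 score among all summits of its replicate, by distance from the start of the cluster, with filled points inside an EPIC2 region of the same replicate and open points outside. Replicate 1 has summits of the strongest 10% in alpha, beta and gamma, replicate 3 has them in beta but not in alpha or gamma, and open points reach percentile 98.5 in replicate 3.

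Consensus origins were EPIC2 regions with a summit of their own replicate, found in at least 2 of the 3 replicates. The cluster had 38 such regions after merging over replicates, of which 8 (21.1%, exact Clopper-Pearson 95% interval 9.55 to 37.3) were consensus origins. The share was 34.5% over all chromosomes, 28% over the rest of chromosome 5 (1559 of 5560) and 43.7% in the flanks (83 of 190). Per Mb this was 10.9 in the cluster, 41.5 in the flanks and 8.91 in the rest of the chromosome. Of the 8, 7 came from replicates 1 and 3 and 1 from replicates 1 and 2, and 0 were in all 3. The flanks had 14 of 83 in all 3, the rest of chromosome 5 had 242 of 1559, and all chromosomes 8034 of 42075. Replicate 2 had only 1 region with a summit in the cluster, so at most 1 of the 8 could have been in all 3. Replicate 1 was part of every one, so without it none remained, and without replicate 3 there was 1. Replicate 1 was part of nearly all consensus origins elsewhere too. Only 29 of 1559 in the rest of chromosome 5 and 763 of 42075 over all chromosomes lacked it. Those that held both replicates 2 and 3 numbered 271 of 1559 and 8797 of 42075.

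The origins lay in alpha, the alpha-beta spacer, beta and gamma, with none in the beta-gamma spacer. Alpha had chr5:140315401-140318200, whose strongest summits scored 10.4 in replicate 1 and 4.08 in replicate 3, and chr5:140322201-140324600, which holds the strongest summit of the cluster. In the latter the summits of replicates 1 and 2 (scores 25.9 and 4.39) were 26 bases apart, and replicate 3 had a summit there with a score of 4.83 but no EPIC2 region. Both alpha origins lie in the latter part of the alpha window, 155 and 162 kb from its start.

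The origin of the alpha-beta spacer, chr5:140408601-140411600, was called as a region in replicates 1 and 3, and it had a summit in all 3 replicates within 83 bases, with scores of 3.02, 4.25 and 5.56. It was the most evenly seen of the 8 by position, although its summits were of middling or low rank, at percentiles 23, 61.2 and 73.2.

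Beta had 3 origins. At chr5:140447201-140451000 the strongest summits scored 6.37, 1.56 and 8.90 in replicates 1, 2 and 3, with no region in replicate 2. At chr5:140519401-140522000 the scores were 12.6 in replicate 1 and 4.67 in replicate 3, and at chr5:140581401-140584600 they were 8.85 and 2.90. In the last pair of origins replicate 2 had no call.

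Gamma had 2 origins, both in its last stretch. That stretch was drawn to start after 94.0 kb without a region called by both callers. No origin could therefore lie in those 94.0 kb, and the placement is no separate result. The widest of the 8, with 6200 bases, was chr5:140846401-140852600, with scores of 3.76 and 2.79 in replicates 1 and 3, and the width came from replicate 3, since the region of replicate 1 had 1000 bases. At chr5:140869601-140872600 the scores were 4.60 and 2.28, and replicate 2 had a region of 3000 bases there with no summit. Both ranked low, with mean percentiles of 28.4 and 28.9 for their strongest summits, against 52.5 to 76.4 for the other 6. The 8 origins had a median width of 3000 bases (2400 to 6200), and neighbouring starts were 62.0 kb apart in the median (6.8 to 265 kb).

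Summits were also matched between replicates by position alone. In the cluster 9 of 81 (11.1%), 5 of 13 (38.5%) and 8 of 58 (13.8%) summits of replicates 1, 2 and 3 had a summit of another replicate within 100 bases. Over all chromosomes the shares were 17.6%, 41.1% and 12.1%, over the rest of chromosome 5 16.7%, 38.9% and 11.7%, and in the flanks 18.4%, 44.4% and 10.6%. The cluster was thus near the rest of the chromosome in replicates 2 and 3 and lower in replicate 1. By pair, replicates 1 and 2 matched less often than in the rest (3.70% against 9.83% of replicate 1 summits). The other pairs matched more often, all on few summits. Within 500 bases the counts were 26, 8 and 26, or 32.1%, 61.5% and 44.8%. The rest of chromosome 5 had 36.0%, 58.7% and 34.6%, and the flanks 40.1%, 71.6% and 33.8%. The share is highest in replicate 2, which has the fewest summits, and so it cannot be read as a rank of quality.

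The matches made 10 sites, 5 in alpha, 1 in the alpha-beta spacer, 2 in beta and 2 in gamma, and 6 of them had no EPIC2 region in the replicates concerned. The share of such sites elsewhere was not taken. Of all summits in the cluster, 44 of 81, 12 of 13 and 39 of 58 stood outside a region in replicates 1, 2 and 3. At 2 sites all 3 replicates met. The first, in alpha at chr5:140381420-140381537, had scores of 1.94, 5.21 and 3.53 and no region in any replicate, and 5.21 is the highest score of replicate 2 in the cluster. The second was the alpha-beta spacer origin above. The tightest matches were both in beta, 2 bases apart at chr5:140599333-140599335 in replicates 1 and 3 and 4 bases apart at chr5:140452339-140452343 in replicates 1 and 2, yet their scores were as low as 1.56 in both cases.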

How the data were processed

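SNS-seq of untreated HCT116 cells was made in 3 replicates. Per the study's methods and the submitters' processing notes, the authors' reads were mapped with Bowtie2 (2.3.4.2) on hg19 and freed of duplicates with Picard (2.18.17), and the authors called each replicate on its own with MACS2 (2.1.0.20151222, q-value of 0.1) and EPIC2 (false discovery rate of 0.1). Not given in the sources used here are a control library for calling, the kind of EPIC2 score and the treatment of reads that map to more than 1 place, which bears on genes as alike as these. The deposited EPIC2 score therefore served only to rank regions within a replicate. The deposited MACS2 score was taken to be −log10 of the q-value, as its lowest value is 1.00017. Depth is unknown.

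EPIC2 regions counted where they overlapped a window by at least 1 base. Percentiles were taken within a replicate over chromosomes 1 to 22 and X. Densities leave out stretches of the chromosome without calls. Common regions of the replicates were merged on 1 base of overlap. Calls on chromosome 1 reach base 249207400, and GRCh38 has only 248956422 bases there, so no coordinate was taken from that build and no call was assigned to a gene, and RefSeq names and promoters were matched by symbol. All 8 consensus origins were named, as were the longest stretches without a call. The members and lists were chosen with earlier results of these data known. No test between groups was possible with 1 group. Alternatives changed the counting of regions, the score threshold, the background, the flanks, the overlap and the replicates, and 2 of them, summits within 1 kb of a region and consensus over all EPIC2 regions, were chosen after seeing the data. Analyses used Python 3.11.15, numpy 2.4.6, pandas 2.3.3 and scipy 1.17.1, and the counting was tested on simulated data.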

Additional observations from a re-analysis of the deposited data

How the results depend on the processing

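The density of EPIC2 regions in the cluster over its flanks stayed below 1 under every alternative run. It moved to 0.196 with the upper 50% of scores and spanned 0.321 to 0.410 with each replicate left out. For summits over the flanks that span was 0.6 to 0.786, and for regions called by both callers 0.255 to 0.465. Over the rest of chromosome 5 the EPIC2 ratio of 1.29 turned to 0.806 with the upper 50% of scores and to 0.770 with chromosomes 1 to 22 as background, and spanned 1.18 to 1.47 without 1 replicate. The ratio for regions called by both callers (1.17) turned to 0.809 and 0.749 under the same alternatives, and spanned 0.912 (without replicate 3) to 1.64 (without replicate 2). For the summit ratio the span was 1.30 to 1.68.

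The 8 consensus origins fell to 4 with a reciprocal overlap of 50% and to 0 with all 3 replicates required, and spanned 0 to 7 without 1 replicate. The share of regions with a summit, cluster minus rest, was -9.37 percentage points and spanned -18.9 to 9.13, turning without replicate 2. The summit percentile difference spanned -3.24 to 0.954, turning without replicate 1. The share of matched summits, cluster minus rest, was -1.30 percentage points, turned to 3.08 within 500 bases and spanned -8.73 to 9.09. The causes were not tested. Of 97 alternative values for 20 results, 80 stayed within the replicates' spread or, for consensus counts, within 1.5 times the count. Another 6 moved further and 11 changed direction. Apart from matched summits and consensus counts, a mean with 1 replicate left out cannot leave that spread, by its arithmetic. Such a mean could only stay or change direction, so the count of 80 does not measure robustness. Cluster and background were paired within each replicate, as ratios or differences, while no analysis paired between conditions was possible with 1 group. Replicate 2, with 6 regions and 13 summits in the cluster, limits every statement on single sites, and the lists give no depth.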
